A study of Mus musculus with 165 samples.

Results

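The livers of 17 male mice aged 24 months were compared with those of 16 male mice aged 3 months. They were chosen by the age and tissue in the sample labels and make up 33 of the 165 libraries of the series. In the whole study, RNA of brain and liver was sequenced from C57BL/6J/Ukj mice, an inbred strain, aged 3, 9, 15, 24 or 28 months, all of them male by the series' design text. The labels name no transgene and no agent for either age, and say that the mice were held only to age, under controlled conditions. Polyadenylated RNA was made into stranded TruSeq libraries in 3 library preps, and both ages are present in every prep, with 5, 6 and 5 livers at 3 months and 5, 6 and 6 at 24 months. The replicate number names a mouse within its age, so mice of different ages are not paired.

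The liver is built mostly of hepatocytes, which make plasma proteins, bile acids and glucose, oxidise fat and clear drugs. In the male mouse the pituitary releases growth hormone in pulses, which activate the transcription factor STAT5 in hepatocytes. Male-biased genes such as those of the major urinary proteins depend on these pulses, and female-biased genes are held down by them. The organ also holds resident macrophages, the Kupffer cells, with stellate, endothelial and bile duct cells, and it receives lymphocytes and neutrophils from the blood.

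Total counts per liver ran from 22.8 to 45.1 M at 3 months and from 25.1 to 45.2 M at 24 months. Levels are given as CPM, a gene's reads relative to the TMM-scaled total of its library. Median correlations of a liver with the others of its age lay between 0.964 and 0.988 at 3 months and between 0.932 and 0.985 at 24 months, and only replicate 13 at 24 months fell below 1.5 interquartile ranges under the first quartile of its age. Counts below were also made without the 6 livers least like their age, replicates 5, 6, 8, 10 and 13 at 24 months and replicate 12 at 3 months. A further 4 livers at 3 months, replicates 10, 13, 15 and 16, stood apart from the other 3 month livers on the second principal component, which held 10.4% of the variance, and counts were also made without them. Both choices followed inspection of the data. Of 10 hepatocyte markers 4 fell (Serpina1c, Tdo2, Ttr and Hnf4a) and 0 rose. Alb, which encodes albumin, had medians of 65982 CPM at 3 months and 75260.5 CPM at 24 months, a difference that did not pass the test (adjusted p = 0.132). Without the 6 livers Alb was at 0.37 (adjusted p = 0.0112) on the log2 scale and Ttr at -0.27 (adjusted p = 0.0678), and Hnf4a was at -0.11 (adjusted p = 0.384) without the 4.

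The difference between 24 and 3 months covered much of the expressed genome, and the large changes were mostly increases. Of 15579 genes tested, 7636 (49%) passed an adjusted p of 0.05 in edgeR's quasi-likelihood test with library prep as a term. At 24 months 3894 of them were higher (25%) and 3742 were lower (24%). A change of at least 2-fold was found for 1381 of the higher genes and 175 of the lower ones, and 4425 of the called genes differed by less than 0.5 on the log2 scale. Of the called genes 97.4% had the same direction in each of the 3 preps, against 66.1% of all genes tested. The calls came from these same livers, so this share is a description and no separate test. Ranges of the groups rarely separated: every 24 month liver exceeded every 3 month liver for 49 genes (0.315%) and lay below every one for 18 genes (0.116%). These shares are the background for the counts in each gene list below. In whole tissue, fewer cells of a type and less RNA per cell cannot be told apart.

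**Figure D1:**
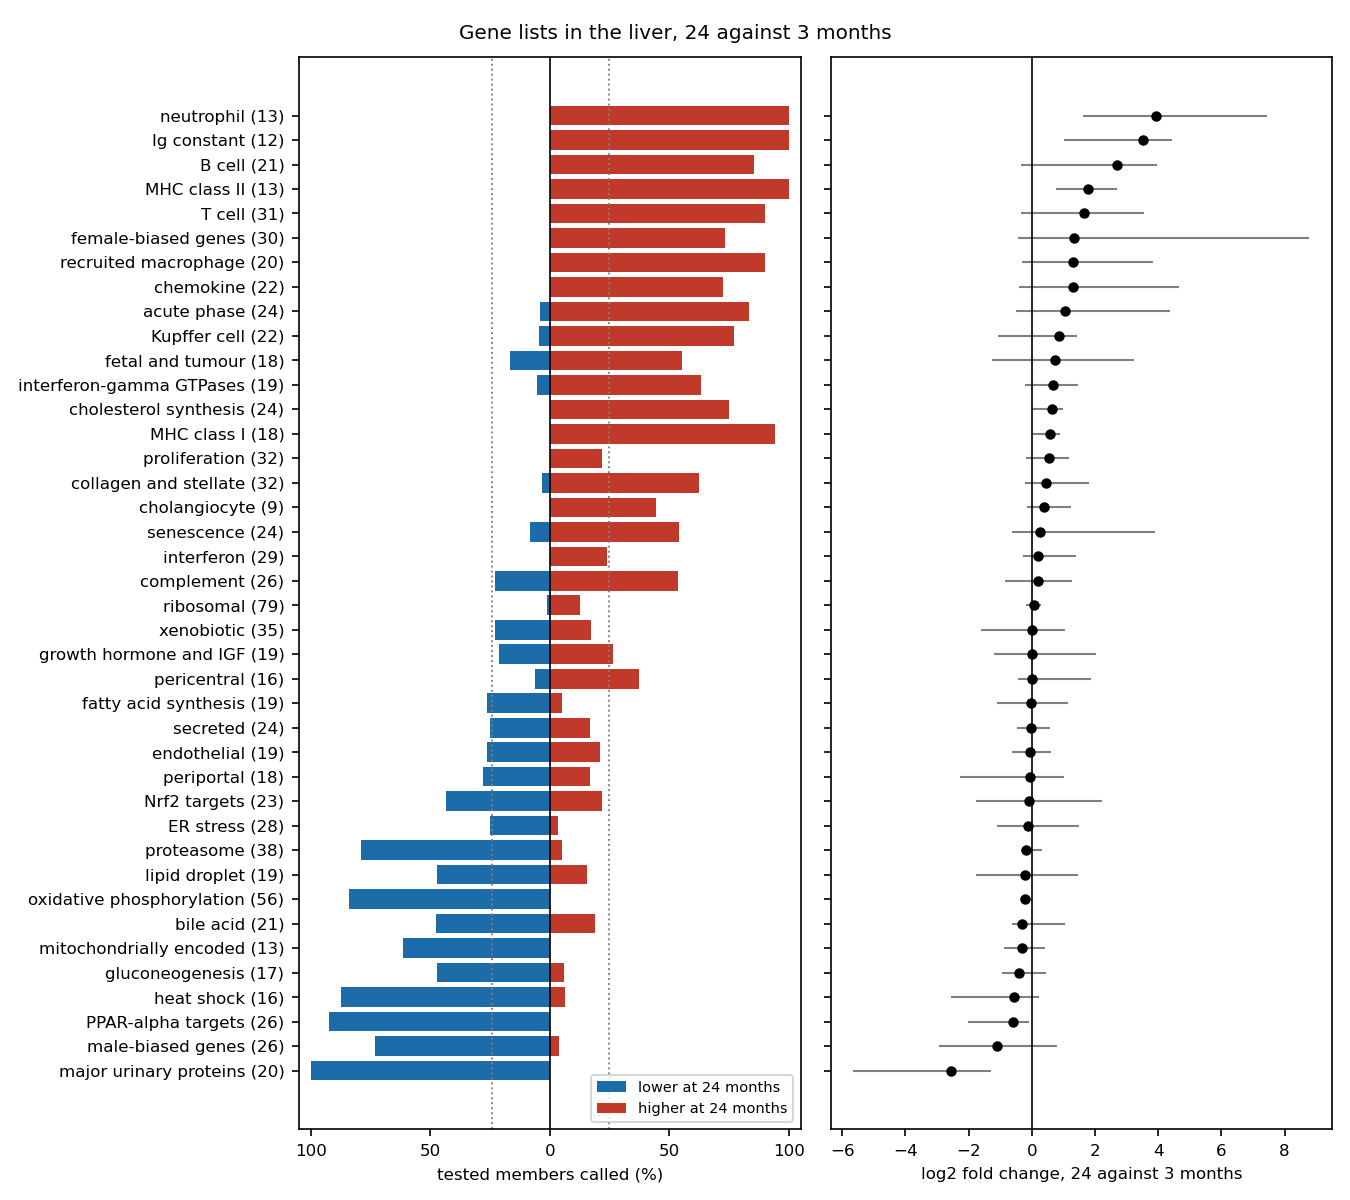
Gene lists in the liver, 24 against 3 months. Left, percent of the tested members (number in brackets) called higher (right of 0) or lower (left of 0), with dotted lines at the shares of all genes, 25% higher and 24% lower; right, median (point) and range (line) of the members' log2 fold changes. Immune lists sit at the top, and the male-biased and major urinary protein genes at the bottom.

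Male-biased genes were lower and female-biased genes higher in the old livers. Of the 26 male-biased genes tested, 19 fell and 1 rose, and their median log2 fold change was -1.10. Of 30 female-biased genes tested (36 listed), 22 rose and 0 fell, and their median was 1.35. Genes near 0 at 3 months could pass the filter on low counts only through older livers, so counts of lists that lost members to it are descriptions. The median over all genes was -0.0101. Without the 6 least alike livers the counts were 19 lower male-biased genes and 21 higher female-biased genes.

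Slco1a1, which encodes an organic anion uptake transporter and lies at chr6:141907282-141946962 (GRCm38), stood at 299 CPM in the lowest, 532 in the median and 686 in the highest of the 3 month livers. At 24 months it was at 0.191 CPM in the lowest, 71.5 in the median and 412 in the highest (log2 fold change -2.30, SE 0.60, adjusted p = 0.00102). It was below every 3 month value in 16 of the 17 old livers, and the old livers spread far wider than the young. Hsd3b5, a steroid reductase of the 3-beta-hydroxysteroid dehydrogenase family (chr3:98618634-98630252), ranged over 99.6 to 374 CPM at 3 months and 0.0803 to 211 CPM at 24 months (log2 fold change -2.53, SE 0.65, adjusted p = 0.000886). Elovl3, an elongase of very long chain fatty acids, had medians of 619 and 75 CPM at 3 and 24 months (log2 fold change -2.18, SE 0.64, adjusted p = 0.00327). Old livers within the young range numbered 1 for Slco1a1, 2 for Hsd3b5 and 3 for Elovl3, replicate 3 in each case, joined by replicate 7 for Hsd3b5 and by replicates 7 and 12 for Elovl3. Hsd3b5 was at -3.13 on the log2 scale without replicate 7 at 24 months.

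The other male-biased genes that were lowest against 3 months included Cspg5, which encodes a chondroitin sulfate proteoglycan (log2 fold change -2.93, SE 0.34, adjusted p = 9.45e-11), and the glucuronosyltransferase Ugt2b38 (log2 fold change -2.84, SE 0.31, adjusted p = 1.1e-11). Cyp2d9, a steroid hydroxylase, ranged over 999.8 to 1588 CPM at 3 months and 113 to 824 CPM at 24 months, so the groups did not overlap (log2 fold change -1.53, SE 0.20, adjusted p = 2.54e-09). Gstp1, a glutathione transferase and one of the most abundant of these genes, did not overlap either: its range was 1077 to 2207 CPM at 3 months and 221 to 837 CPM at 24 months (log2 fold change -1.76, SE 0.13, adjusted p = 1.74e-18). Gstp1 has a close copy in Gstp2, and reads could be split between them. Gstp2 itself was at 0.07 (adjusted p = 0.816). Nat8, an acetyltransferase, was the male-biased gene that rose (log2 fold change 0.80, SE 0.21, adjusted p = 0.00128). Serpina4-ps1, a pseudogene of the serpin cluster on chromosome 12, fell with them (log2 fold change -2.91, SE 0.60, adjusted p = 4.49e-05). Serpina4-ps1 was at -3.57 on the log2 scale without replicate 7 at 24 months.

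All 20 major urinary protein genes tested (22 listed) fell. Their log2 fold changes had a median of -2.55 and a range of -5.65 to -1.30. These genes encode lipocalins that carry pheromones in male urine, and lie as near-identical copies on chromosome 4, so reads can be shared between copies and single members are uncertain. Their summed level was 8646 to 21301 CPM at 3 months and 230.4 to 8963 CPM at 24 months, with medians of 11808 and 2415 CPM. Of the members that differ more from the others, Mup20, which encodes the pheromone darcin, ranged over 1186 to 3244 CPM at 3 months and 11.5 to 1847 CPM at 24 months (log2 fold change -1.61, SE 0.40, adjusted p = 0.000577), and Mup3 over 4825 to 9392 CPM and 209 to 5173 CPM (log2 fold change -1.63, SE 0.28, adjusted p = 2.47e-06). Replicate 15 at 24 months had the lowest level of the cluster and replicate 7 the highest when each gene was set against its 3 month median. Gm13775, a transcript that overlaps a major urinary protein pseudogene, also fell (log2 fold change -2.67, SE 0.44, adjusted p = 6.72e-07).

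Among female-biased genes Slc22a26, an organic anion transporter (chr19:7781041-7802667), was above every 3 month value in all 17 old livers. Its level was 0.109 CPM in the lowest, 1.08 in the median and 2.2 in the highest of the young livers and 5.81 CPM in the lowest, 34.1 in the median and 234 in the highest of the old (log2 fold change 5.39, SE 0.48, adjusted p = 2.15e-15). The neighbouring transporter Slc22a27 did the same, at 0.0438 to 1.68 CPM and 2.5 to 35.9 CPM (log2 fold change 3.90, SE 0.32, adjusted p = 1.33e-16), as did Ntrk2, a neurotrophin receptor, at 0.109 to 0.646 CPM and 2.87 to 42.3 CPM (log2 fold change 4.71, SE 0.42, adjusted p = 3.19e-15). Cyp2b9, a cytochrome P450, rose from a median of 3.23 to 92.6 CPM (log2 fold change 4.42, SE 0.55, adjusted p = 8.58e-10), and exceeded all 3 month values in 15 of 17 livers. The neighbouring Cyp2b10, which responds to the receptor CAR, showed no such difference, with medians of 6.6 and 5.98 CPM (adjusted p = 0.394).

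At 3 months the livers held almost no reads of several of these genes, and fitted fold changes there depend on the prior count, as they do for Camp and ENSMUSG00000079190 below. Cyp2b13 had 8 reads over all 16 young livers and 5432 over the 17 old ones, with a median of 1.76 CPM and a highest value of 80.6 CPM in replicate 15 (log2 fold change 8.78, SE 0.89, adjusted p = 7.7e-13). Cyp2b13 was at 7.84 on the log2 scale without replicate 15 at 24 months. Cyp2b13 was at 9.50 on the log2 scale without replicate 8 at 3 months. Sult1e1, the estrogen sulfotransferase, rose in 15 of 17 livers above every 3 month value, to a median of 0.642 CPM (log2 fold change 5.74, SE 0.69, adjusted p = 2.25e-10). Cux2, a female-biased transcription factor that binds many sex-biased genes, had a median of 0.496 CPM at 3 months and 0.67 CPM at 24 months with a highest value of 26.2 CPM (log2 fold change 2.71, SE 0.53, adjusted p = 2.13e-05). It was above every young value in 9 old livers and below every one in 1.

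**Figure D2:**
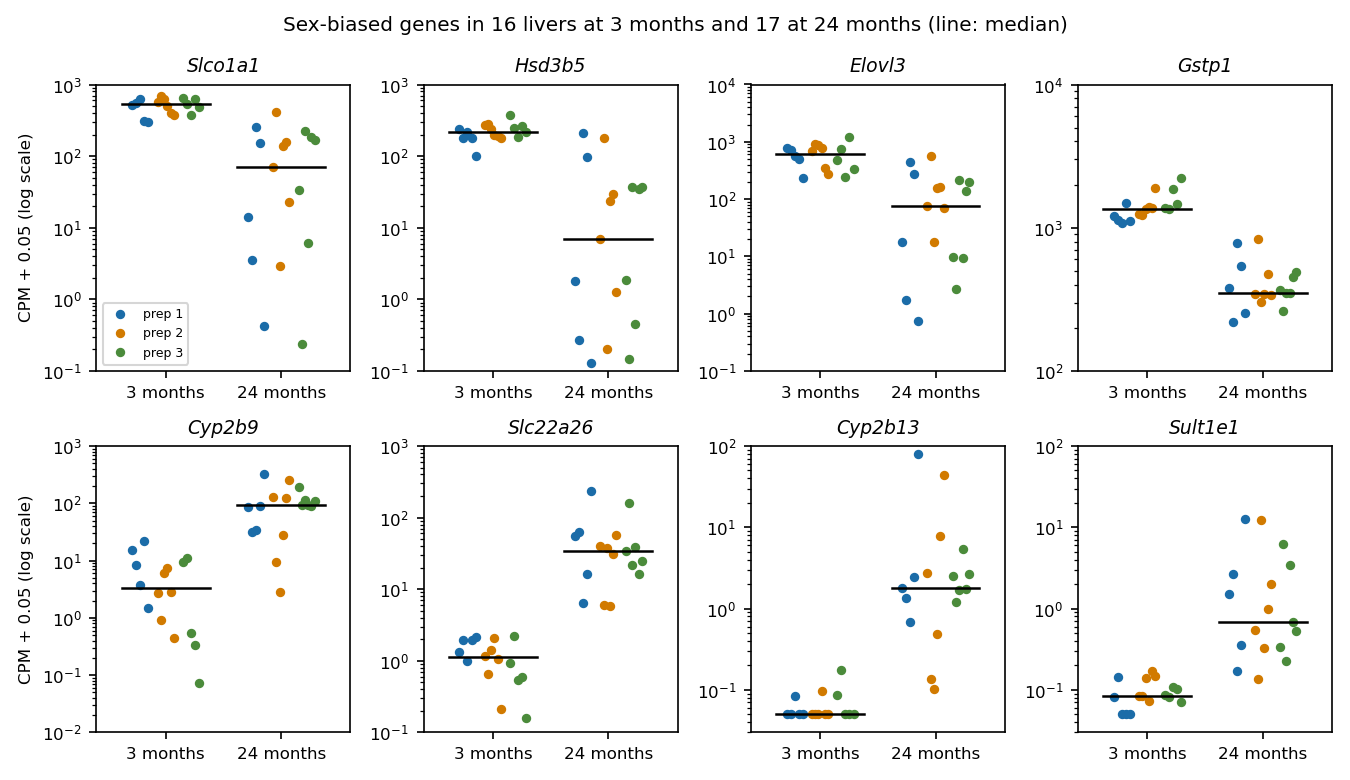
CPM plus 0.05 on a log scale for 4 male-biased genes (top) and 4 female-biased genes (bottom) in each of 16 livers at 3 months and 17 at 24 months. Points are livers coloured by library prep and lines are medians; Gstp1 and Slc22a26 do not overlap between ages, whereas Slco1a1, Hsd3b5 and Elovl3 spread from the young range down to nearly 0.

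The promoters of 2 members are shown because STAT5 binds the palindrome TTCNNNGAA and both carry it, in capitals. They are the 250 bases before the transcription start, 5′ to 3′ on the strand of the gene, from RefSeq (GRCm38.p6). Keg1, a male-biased acyltransferase-like gene at chr19:12695540-12695789 on the plus strand, fell (log2 fold change -1.39, SE 0.22, adjusted p = 2.45e-07) and Slc22a26 at chr19:7802668-7802917 on the minus strand rose.
Keg1: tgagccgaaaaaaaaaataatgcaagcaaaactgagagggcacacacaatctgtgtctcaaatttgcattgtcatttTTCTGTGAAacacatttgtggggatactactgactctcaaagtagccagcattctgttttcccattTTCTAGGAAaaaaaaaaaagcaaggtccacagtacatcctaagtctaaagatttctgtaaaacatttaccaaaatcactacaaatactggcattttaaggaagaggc
Slc22a26: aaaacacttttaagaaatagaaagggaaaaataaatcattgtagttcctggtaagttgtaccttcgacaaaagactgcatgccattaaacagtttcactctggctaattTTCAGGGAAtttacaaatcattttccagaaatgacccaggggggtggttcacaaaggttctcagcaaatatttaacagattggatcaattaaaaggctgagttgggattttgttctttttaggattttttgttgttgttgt
Searched over 300 bases around the start, the motif reads the same on both strands and was present in 2 of 18 male-biased promoters (11.1%), 5 of 24 female-biased ones (20.8%), and 0 of 13 major urinary protein promoters, against 9.55% of the 27025 genes with a promoter entry. A match describes these letters and is no binding site.

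The old livers differed from each other along this axis. Over the 17 livers at 24 months, log2 levels of Slco1a1 went with those of the other male-biased genes: Pearson r was 0.928 with Hsd3b5 (Spearman rho 0.966), 0.941 with Elovl3 (rho 0.914) and 0.784 with Gstp1 (rho 0.836). With Slc22a26 r was -0.859 and rho -0.848. In a family of 9 relations, the two-sided permutation p of these 4 was 2e-05 or 4e-05, and the adjusted p was 6e-05 or 9e-05. The value 2e-05 is the smallest that 100000 resamples can give. Leaving out the 2 livers farthest from the median of Slco1a1, replicates 6 and 15, gave r, in the same order, of 0.952, 0.914, 0.747 and -0.742; with prep means removed r was 0.943, 0.943, 0.796 and -0.853.

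For 2 other female-biased genes the relation did not pass the test. Cyp2b9 had r of -0.0772 (rho -0.145, permutation p = 0.804 and 0.579) and Cyp2b13 had r of -0.315 (rho -0.194, p = 0.23 and 0.455). Levels of Ighm and Cdkn2a, taken as markers outside this axis, had r of -0.00611 (rho -0.135) and -0.347 (rho -0.444), with adjusted permutation p of 0.908 and 0.274 for r. Without the same 2 livers r was 0.181 for Cyp2b9, -0.118 for Cyp2b13, -0.179 for Ighm and -0.594 for Cdkn2a. The acute phase gene Saa2 split the old livers into 3 at 9393 CPM or more and 14 below 1000 CPM, so the relation was taken within the 14 (r = -0.458, rho = -0.534, permutation p = 0.146 and 0.0511). The 3 livers high in Saa2, replicates 5, 6 and 8, had 3.54, 0.191 and 2.87 CPM of Slco1a1.

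**Figure D3:**
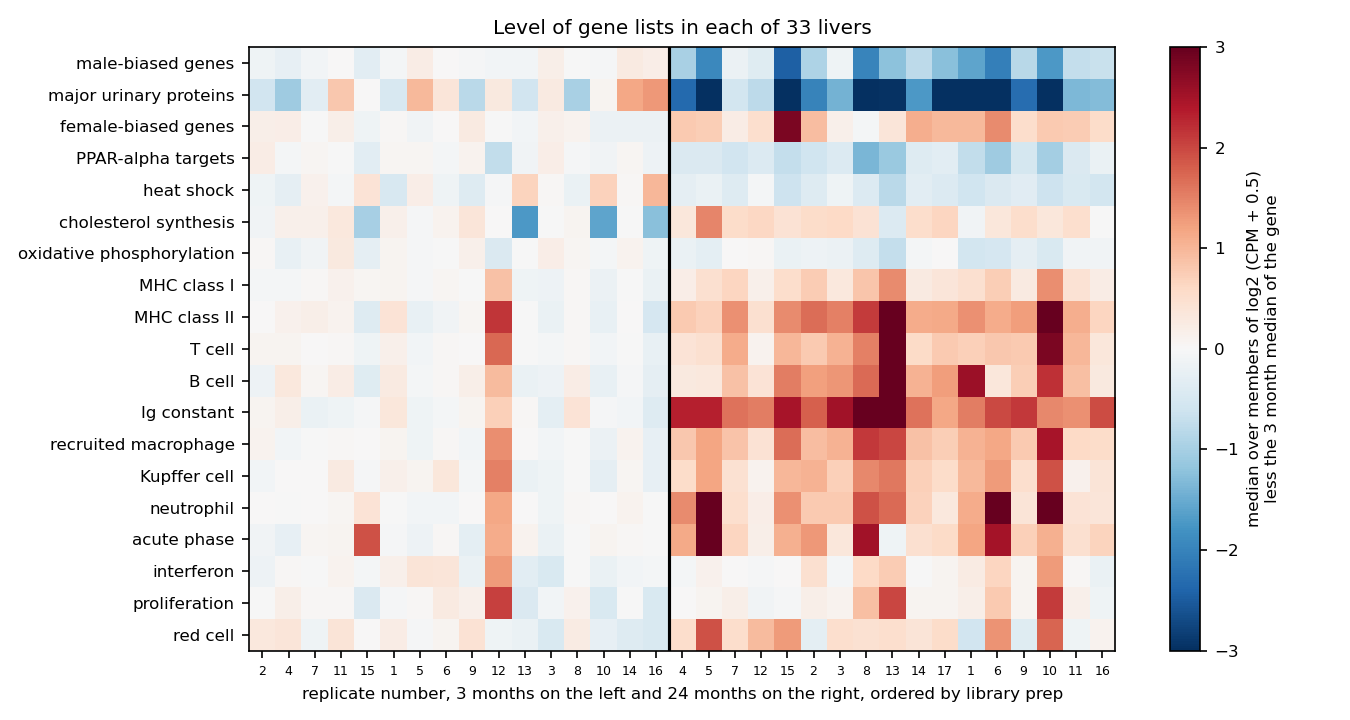
Level of 19 gene lists in each of 33 livers, as the median over members of log2 (CPM + 0.5) less the gene's median at 3 months (colour, from -3 to 3). Columns are livers with their replicate numbers, 3 months left of the black line and 24 months right of it; replicate 15 at 24 months is lowest in male-biased genes, replicates 10 and 13 are highest in T cell and MHC class II genes, and replicate 12 at 3 months resembles them.

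Growth hormone signalling genes were called about as often as all genes. Of 19 members tested (20 listed) 5 rose (Socs3, Prlr, Igfbp3, Igf1r and Jak2) and 4 fell (Bcl6, Ghr, Igfals and Hnf4a). Among all genes 25% rose and 24% fell. Without the 6 livers 3 rose (Socs3, Igfbp3 and Prlr) and 3 fell (Ghr, Bcl6 and Hnf4a), and without the 4 livers apart 4 rose (Socs3, Igf1r, Igfbp3 and Prlr) and 2 fell (Ghr and Bcl6). The receptor Ghr fell (log2 fold change -0.36, SE 0.081, adjusted p = 0.000153), and Bcl6, a repressor of female-biased genes in the male liver, fell from a median of 92.8 to 28.4 CPM (log2 fold change -1.21, SE 0.39, adjusted p = 0.00743). Socs3, an inhibitor of cytokine receptor signalling, rose (log2 fold change 2.03, SE 0.35, adjusted p = 1.94e-06), to 219.9 CPM in replicate 5, and its log2 fold change was 0.88 (adjusted p = 0.0159) without the 6 least alike livers. The signal transducers Stat5a and Stat5b had log2 fold changes of -0.086 (adjusted p = 0.541) and 0.04 (adjusted p = 0.745), and Igf1, the growth factor the liver secretes under growth hormone, had medians of 494 and 499 CPM (adjusted p = 0.983). Igfals, which carries IGF in plasma, fell by 0.28 on the log2 scale (adjusted p = 0.0165), and was at -0.14 (adjusted p = 0.241) without the 6 and -0.11 (adjusted p = 0.396) without the 4 livers.

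Immunoglobulin transcripts were higher in the old livers. Of 13 genes of constant regions and the joining chain, 12 were high enough to test, and these rose, with a median log2 fold change of 3.52. Of 380 variable, diversity and joining segments 81 were high enough, and their summed level was 5.36 to 23.4 CPM at 3 months and 32.8 to 819 CPM at 24 months. A segment near 0 at 3 months could enter the test only through livers in which it was high, so no count of segments that rose is given. Segments are near-identical and a few clones can dominate a liver, so they are given as a group only. Ighm, the heavy chain of IgM, was at 4.44 CPM in the lowest, 21.5 in the median and 49.1 in the highest of the 3 month livers. At 24 months it was at 79.8 CPM in the lowest, 152 in the median and 2333 in the highest (log2 fold change 3.78, SE 0.46, adjusted p = 5.54e-10), and every old liver lay above every young one. The kappa light chain gene Igkc did the same, at 6.14 to 28.6 CPM and 40.4 to 773 CPM (log2 fold change 3.61, SE 0.40, adjusted p = 1.33e-11), and so did the lambda gene Iglc2 (log2 fold change 4.45, SE 0.65, adjusted p = 4.98e-08), whose highest value of 142 CPM stood in replicate 8. Ighm was at 3.03 on the log2 scale without replicate 13 at 24 months. Iglc2 was at 3.498 on the log2 scale without replicate 8 at 24 months.

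Ighg1, the heavy chain of IgG1, rose as well (log2 fold change 4.35, SE 0.77, adjusted p = 3.45e-06), whereas Ighd, which marks naive B cells, passed narrowly (log2 fold change 1.02, SE 0.40, adjusted p = 0.0276), with adjusted p = 0.274 without replicate 13 at 24 months. It was at 0.84 (adjusted p = 0.067) without the 6 and 0.79 (adjusted p = 0.129) without the 4 livers apart. Without the 6 least alike livers 11 of 12 constant genes rose, with a median of 2.53. Of 21 B cell and plasma cell genes tested (22 listed) 18 rose. The B cell receptor chain Cd79a ranged over 0.646 to 2.76 CPM at 3 months and 0.957 to 129.6 CPM at 24 months (log2 fold change 3.09, SE 0.53, adjusted p = 1.91e-06), the top value being replicate 13, and its log2 fold change was 2.11 (adjusted p = 0.000165) without the 6 livers. The B cell kinase Blk rose by 3.96 on the log2 scale (adjusted p = 5.04e-07). Fcrl5, an Fc receptor-like protein of B cells, was among the 10 genes with the largest rise (log2 fold change 6.55, SE 0.94, adjusted p = 3.72e-08), with a median of 0.354 CPM and 32.7 CPM in replicate 13. Without replicate 13 at 24 months Cd79a, Blk and Fcrl5 were at 1.99, 2.55 and 5.17 on the log2 scale.

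T cell and cytotoxic genes rose in 28 of 31 members, and the median over the list was 1.64. The T cell receptor chains Cd3d, Cd3e and Cd3g had log2 fold changes of 1.64, 1.84 and 2.26 (adjusted p = 1.32e-05, 2.31e-07 and 1.86e-07). Cd3e was at 0.372 CPM in the lowest, 0.523 in the median and 2.79 in the highest of the young livers and 0.53 CPM in the lowest, 1.63 in the median and 9.69 in the highest of the old. The highest young value, in replicate 12, lay within the old range. Cd8a, of cytotoxic T cells, had medians of 0.308 and 1.95 CPM (log2 fold change 2.49, SE 0.42, adjusted p = 1.43e-06), while Cd4, of helper T cells but also of some macrophages, had 3.17 and 1.78 CPM and did not pass the test (log2 fold change -0.34, SE 0.25, adjusted p = 0.248). The granzyme Gzmk rose most of the list (log2 fold change 3.54, SE 0.67, adjusted p = 1.05e-05), and the inhibitory receptor Pdcd1 and the transcription factor Eomes rose with it, by 3.24 and 3.13 (adjusted p = 6.18e-05 and 9.89e-07). Without the 6 livers 28 members rose, 1 fell (Cd4) and the median was 1.27. Without replicate 13 at 24 months Cd3g and Gzmk were at 1.61 and 2.804 on the log2 scale. Gzmk was at 5.75 on the log2 scale without replicate 12 at 3 months.

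Antigen presentation genes rose in both classes. All 13 MHC class II genes rose, with a median of 1.78. Cd74, the invariant chain, was at 46.8 CPM in the lowest, 92 in the median and 538 in the highest at 3 months and 149 CPM in the lowest, 220.0 in the median and 1668 in the highest at 24 months (log2 fold change 1.86, SE 0.30, adjusted p = 4.16e-07). H2-Aa and the class II transactivator Ciita rose by 1.78 and 1.72 (adjusted p = 1.36e-06 and 2.14e-05). Of 18 class I genes 17 rose, with a median of 0.57, and without the 6 livers 15 rose with a median of 0.35. Over all livers H2-K1 rose by 0.35 (adjusted p = 3.67e-05), H2-D1 by 0.64 (adjusted p = 8.93e-08) and B2m by 0.20 (adjusted p = 0.00953). B2m, the class I light chain, was at 0.13 (adjusted p = 0.132) without the 4 livers apart at 3 months. The immunoproteasome subunit Psmb8 rose most of this list (log2 fold change 0.88, SE 0.16, adjusted p = 3.14e-06). Summed levels of the class II list were 145 to 1483 CPM at 3 months and 421 to 4333 CPM at 24 months. Those of the T cell list were 22.4 to 125 CPM at 3 months and 39 to 437 CPM at 24 months. Both were highest in replicates 10 and 13 at 24 months and replicate 12 at 3 months, and their relation over all livers was not tested. The part of cell number in these levels was not tested.

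Macrophage genes also rose. Of 22 Kupffer cell genes 17 rose and 1 fell. Clec4f, a lectin found on Kupffer cells, rose by 0.47 (adjusted p = 0.00598) and was at 0.37 (adjusted p = 0.0563) without the 4 livers apart; Timd4 rose by 0.92 (adjusted p = 8.36e-05) and Vsig4 by 1.01 (adjusted p = 4.15e-07). Cd163, the haptoglobin-hemoglobin receptor, was the member that fell (log2 fold change -1.07, SE 0.38, adjusted p = 0.0149); 15 old livers lay below every 3 month value and 2 above, with 40.8 CPM in replicate 15. Marco, a scavenger receptor, rose (log2 fold change 1.43, SE 0.50, adjusted p = 0.0135) but was at 1.17 (adjusted p = 0.0753) without the 4 livers apart at 3 months. The complement C1q chains made by macrophages, C1qa, C1qb and C1qc, rose by 1.01, 1.07 and 1.07 (adjusted p = 5.54e-07, 2.74e-07 and 1.6e-07).

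Recruited and lipid-associated macrophage genes rose in 18 of 20 members. Gpnmb, a glycoprotein of lipid-laden macrophages, went from 0.137 CPM in the lowest, 0.316 in the median and 5.37 in the highest at 3 months to 1.34 CPM in the lowest, 3.54 in the median and 51.6 in the highest at 24 months (log2 fold change 3.49, SE 0.45, adjusted p = 1.54e-09), and its log2 fold change was 3.54 (adjusted p = 5.11e-13) without the 6 least alike livers. Gpnmb was at 2.84 on the log2 scale without replicate 13 at 24 months. Gpnmb was at 4.34 on the log2 scale without replicate 12 at 3 months. The lipid receptor Trem2 rose too (log2 fold change 2.14, SE 0.32, adjusted p = 8.74e-08), and Lyz2, a lysozyme of macrophages and neutrophils, had medians of 77.4 and 214 CPM (log2 fold change 1.32, SE 0.18, adjusted p = 1.51e-08). Spp1, osteopontin, rested on few livers: medians were 40.4 and 41.4 CPM, replicate 5 had 492 CPM, and the value of 1.26 on the log2 scale became 0.064 (adjusted p = 0.724) without the 6. Spp1 is also a bile duct marker.

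All 13 neutrophil genes tested (14 listed) rose. Their median was 3.94 on the log2 scale and 2.39 without the 6 least alike livers. S100a8 and S100a9, the calprotectin subunits, were at medians of 0.992 and 1.25 CPM at 3 months and 5.9 and 8.79 CPM at 24 months, with 179 and 228 CPM in replicate 10 (log2 fold changes 3.93 and 3.71, adjusted p = 4.13e-08 and 4.44e-08). Granule genes made by immature neutrophils filled 4 of the 10 places for the largest rise. They were Camp, Ngp, Ltf and Mpo, with log2 fold changes of 7.46, 5.89, 5.74 and 6.05, against 3.85, 3.11, 3.25 and 3.49 without the 6 livers (adjusted p = 0.0132, 0.00642, 0.00834 and 0.00791). Camp had 7 reads over the 16 young livers and 2813 over the 17 old, and Ngp stood at 108 and 65.3 CPM in its 2 highest livers against a median of 0.611 CPM. Camp was at 6.85 on the log2 scale without replicate 10 at 24 months. Without replicate 12 at 3 months Camp, Ngp, Ltf and Mpo were at 8.15, 7.20, 7.31 and 7.38 on the log2 scale. Mpo was at 5.24 on the log2 scale without replicate 5 at 24 months. Mpo overlaps an RNA on the opposite strand, Gm11505.

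Chemokines rose in 16 of 22 members tested (24 listed). Ccl8, a monocyte attractant, rose most (log2 fold change 4.66, SE 0.78, adjusted p = 9.51e-07), to 55.6 CPM in replicate 13 from a 24 month median of 0.757 CPM. The monocyte attractants Ccl2, Ccl3 and Ccl4 rose by 1.34, 2.20 and 1.88 (adjusted p = 0.000284, 4.25e-05 and 0.000355), and Cxcl13, which draws B cells, rose from a median of 4.41 to 17.1 CPM (adjusted p = 7.58e-08). The interferon-induced Cxcl10 did not pass the test (log2 fold change 0.31, SE 0.31, adjusted p = 0.42). Ccl8 was at 3.03 on the log2 scale without replicate 13 at 24 months. Without replicate 12 at 3 months Ccl8, Ccl3 and Ccl4 were at 5.37, 3.22 and 2.86 on the log2 scale.

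**Figure D4:**
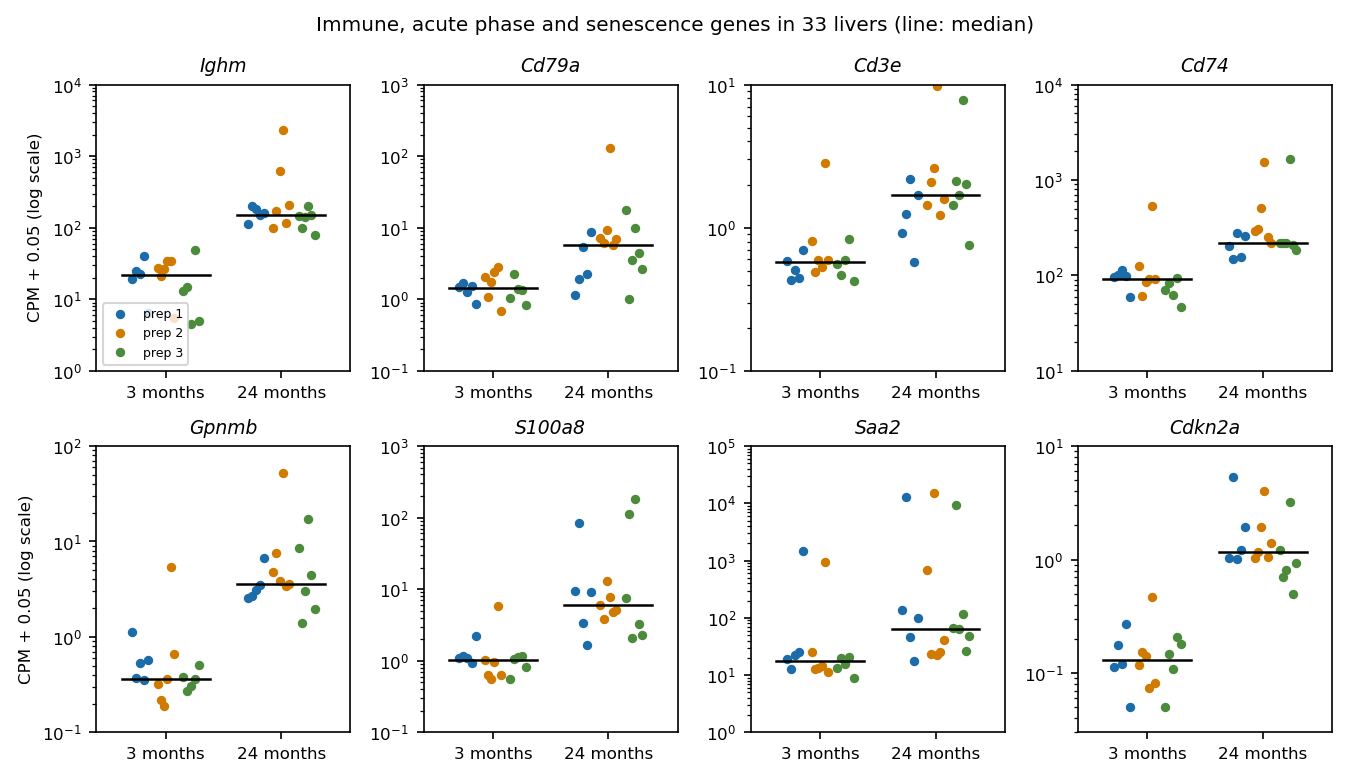
CPM plus 0.05 on a log scale for 8 immune, acute phase and cell cycle inhibitor genes in each of 33 livers, coloured by library prep, with lines at the medians. Ighm and Cdkn2a do not overlap between ages, Saa2 has 3 old livers at 9393 CPM or more, and the single high young liver for Cd3e, Cd74 and Gpnmb is replicate 12.

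Acute phase proteins, which hepatocytes secrete in inflammation, rose in 20 of 24 members with a median of 1.05; without the 6 livers 13 rose with a median of 0.54. Saa2, serum amyloid A, was at 8.87 CPM in the lowest, 17.4 in the median and 1473 in the highest at 3 months and at 17.8 CPM in the lowest, 62.7 in the median and 15074 in the highest at 24 months (log2 fold change 4.38, SE 1.03, adjusted p = 0.000283). Replicates 5, 6 and 8 at 24 months had 13093, 9393 and 15074 CPM, and the other 14 lay within the young range. Without the 6 livers, among them those 3, Saa2 was at 0.50 (adjusted p = 0.677) and its near-identical neighbour Saa1 at 0.68 (adjusted p = 0.515). Without replicate 6 at 24 months Saa2 and Saa1 were at 3.37 and 2.64 on the log2 scale. Without replicate 15 at 3 months Saa2 and Saa1 were at 5.56 and 4.43 on the log2 scale. Lcn2, lipocalin 2, which neutrophils also make, had medians of 4.3 and 46.5 CPM (log2 fold change 4.33, SE 0.74, adjusted p = 1.63e-06). Hpx, hemopexin, one of the most abundant genes that rose, had medians of 3803 and 7654 CPM (log2 fold change 1.05, SE 0.19, adjusted p = 4.84e-06) and kept 0.73 (adjusted p = 0.000108) without the 6. Hamp, hepcidin, which limits iron uptake, fell (log2 fold change -0.49, SE 0.21, adjusted p = 0.0491), and lost the call with 1 liver left out (adjusted p = 0.124 without replicate 13 at 3 months), without the 6 livers, at -0.36 (adjusted p = 0.139), and without the 4, at -0.21 (adjusted p = 0.461).

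Complement components divided. Of 26 tested (27 listed) 14 rose. Among them were C3, at medians of 6460.4 and 9745 CPM (log2 fold change 0.54, SE 0.13, adjusted p = 0.000258), and C5ar1, the receptor for C5a (log2 fold change 1.26, SE 0.26, adjusted p = 4.16e-05). Another 6 fell, with C6 of the membrane attack complex, itself male-biased, lowest (log2 fold change -0.85, SE 0.19, adjusted p = 0.000204). Type I interferon-stimulated genes rose in 7 of 29, a share near the 25% of all genes, and in 2 without the 6 livers (Zbp1 and Ifi27). Without the 4 livers apart 3 rose (Ifi27, Zbp1 and Trim30a). Ifit1, Ifit2 and Ifit3 had log2 fold changes of -0.011, 0.41 and 0.21 (adjusted p = 0.97, 0.104 and 0.379). Zbp1, a nucleic acid sensor, rose (log2 fold change 1.39, SE 0.31, adjusted p = 0.000125). Interferon-gamma inducible GTPases rose in 12 of 19 and 1 fell (Gm4951), with Gbp2 at medians of 7.52 and 17.5 CPM (log2 fold change 1.44, SE 0.31, adjusted p = 8.59e-05). Without the 4 livers apart at 3 months 4 rose (Gbp2, Gbp5, Gbp8 and Tgtp1), and Gbp3 and Gbp4 were at 0.62 (adjusted p = 0.0658) and 0.69 (adjusted p = 0.0806). Gbp4 also lost its call with 1 liver left out (adjusted p = 0.225 without replicate 13 at 24 months).

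Cdkn2a, which encodes the cell cycle inhibitor p16, was above every young value in all 17 old livers (chr4:89274471-89294653). It was at 0 CPM in the lowest, 0.0807 in the median and 0.42 in the highest at 3 months and 0.443 CPM in the lowest, 1.1 in the median and 5.33 in the highest at 24 months (log2 fold change 3.90, SE 0.38, adjusted p = 1.7e-13), and the number of counts was low, 53 over the young livers and 962 over the old. Of 24 cell cycle inhibitor and senescence genes tested (25 listed) 13 rose and 2 fell (Cdkn2c and Mdm2). The p53 targets Phlda3 and Eda2r rose by 1.36 (adjusted p = 1.36e-10) and 1.36 (adjusted p = 2.44e-06), and Cdkn1a, which encodes p21 and is also a p53 target, had medians of 21.9 and 25.3 CPM and did not pass the test (log2 fold change 0.17, SE 0.29, adjusted p = 0.659). Cdkn2c, which encodes p18, fell (log2 fold change -0.62, SE 0.16, adjusted p = 0.000926). Cdkn2b rose by 0.58 (adjusted p = 0.0302) but not with 1 liver left out (adjusted p = 0.0682 without replicate 13 at 24 months) or without the 4 livers apart at 3 months, where it was at 0.43 (adjusted p = 0.146).

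Cell cycle genes rose in 7 of 32 members and none fell, against 25% of all genes higher and 24% lower. Mki67 was at 0.355 CPM in the lowest, 2.4 in the median and 21.1 in the highest at 3 months and 1.71 CPM in the lowest, 3.27 in the median and 35.9 in the highest at 24 months (log2 fold change 1.11, SE 0.42, adjusted p = 0.0239), and its highest values stood in replicates 13 and 10 at 24 months and 12 at 3 months, the livers highest in T cell genes. The part of those cells in it was not tested, and it lost the call with 1 liver left out (adjusted p = 0.235 without replicate 13 at 24 months). Mki67 was at 1.74 on the log2 scale without replicate 12 at 3 months. Without the 6 least alike livers 2 cell cycle genes rose (Pcna and Tk1), and without the 4 livers apart 0. Fetal liver and tumour genes moved both ways, 10 higher and 3 lower (Peg3, Afp and Plagl1) of 18 tested (23 listed). H19, an imprinted RNA of the fetal liver, rose from a median of 0.158 to 0.455 CPM (log2 fold change 2.06, SE 0.33, adjusted p = 3.53e-07), while Afp, alpha-fetoprotein, fell from 0.823 to 0.567 CPM (log2 fold change -0.71, SE 0.18, adjusted p = 0.000834). Ly6d, a surface marker also of B cells, rose most (log2 fold change 3.23, SE 0.52, adjusted p = 4.27e-07) with 50.1 CPM in replicate 13. Ly6d was at 2.62 on the log2 scale without replicate 13 at 24 months. Peg3, an imprinted gene, fell (log2 fold change -1.26, SE 0.35, adjusted p = 0.00205) and was at -0.64 (adjusted p = 0.135) without the 4 livers.

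Genes of fatty acid oxidation and other PPAR-alpha targets fell in 24 of 26 members, with a median of -0.60, and none rose. Acot1, which hydrolyses fatty acyl-CoA, had medians of 31.5 and 7.24 CPM (log2 fold change -2.01, SE 0.31, adjusted p = 1.75e-07). Cyp4a14, a fatty acid omega-hydroxylase, was at 38.3 CPM in the lowest, 598 in the median and 1209 in the highest at 3 months and 3.1 CPM in the lowest, 184 in the median and 490.3 in the highest at 24 months (log2 fold change -1.62, SE 0.37, adjusted p = 0.000193). The receptor Ppara itself fell (log2 fold change -0.51, SE 0.17, adjusted p = 0.0086). The mitochondrial importer Cpt1a did not pass (log2 fold change -0.25, SE 0.12, adjusted p = 0.0745), while Cpt2 did (log2 fold change -0.59, SE 0.10, adjusted p = 1.68e-06). Counts without the 6 livers were 22 lower and none higher, and without the 4 livers apart 25 lower. Replicate 12 at 3 months, the young liver high in T cell genes, also had the lowest level of this list among young livers.

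Cholesterol synthesis genes went the other way: 18 of 24 rose, none fell, and the median was 0.64. Sqle, squalene epoxidase, was at 37.6 CPM in the lowest, 112 in the median and 147 in the highest at 3 months and 104 CPM in the lowest, 211 in the median and 457 in the highest at 24 months (log2 fold change 0.99, SE 0.16, adjusted p = 6.29e-07), with 14 of 17 old livers above every young one. Hmgcs1, a synthase early in the pathway, rose by 0.84 (adjusted p = 0.000486). Srebf2, the transcription factor that drives the pathway, rose by 0.52 (adjusted p = 3.69e-10). The 4 livers apart at 3 months had the lowest Sqle of their age, at 37.6, 45.8, 73.4 and 51.8 CPM in replicates 10, 13, 15 and 16. Without them 16 members rose with a median of 0.42, and Sqle was at 0.75 (adjusted p = 6.81e-05).

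Fatty acid synthesis showed little common movement, with 5 of 19 lower (Me1, Mlxipl, Agpat2, Dgat2 and Dgat1) and 1 higher (Pnpla3). Dgat2 was at -0.14 (adjusted p = 0.186) without the 6 and -0.14 (adjusted p = 0.214) without the 4 livers, and Agpat2 at -0.21 (adjusted p = 0.101) without the 4; without the 6, 3 genes rose (Fads1, Gpam and Pnpla3). Me1, the malic enzyme that supplies NADPH, fell (log2 fold change -1.11, SE 0.23, adjusted p = 4.51e-05). The lipase-like Pnpla3 rose (log2 fold change 1.16, SE 0.36, adjusted p = 0.00628) and was at 0.79 (adjusted p = 0.0738) without the 4 livers. Acly and Srebf1 had log2 fold changes of 0.36 (adjusted p = 0.153) and -0.017 (adjusted p = 0.94). Of 19 lipid droplet genes 9 fell and 3 rose (Lpl, Cd36 and Fabp4), of which Cd36 alone rose without the 6 livers. G0s2, which inhibits the main triglyceride lipase, fell most (log2 fold change -1.77, SE 0.28, adjusted p = 3.7e-07), and the droplet coat proteins Plin2, Plin4 and Plin5 fell by 0.57, 1.01 and 0.78 (adjusted p = 6.33e-05, 0.00152 and 1.36e-06). Lpl, lipoprotein lipase, rose (log2 fold change 0.73, SE 0.22, adjusted p = 0.00532) but was at 0.44 (adjusted p = 0.089) without the 6 livers.

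Bile acid genes leaned lower, with 10 of 21 lower and 4 higher (Slco1a4, Abcg5, Akr1d1 and Fgfr4). Cyp8b1, which sets the share of cholic acid, fell (log2 fold change -0.63, SE 0.20, adjusted p = 0.00825) and was at -0.46 (adjusted p = 0.0892) without the 6 livers; also lower was Abcb11, the bile salt export pump (log2 fold change -0.51, SE 0.094, adjusted p = 7.88e-06). Cyp7a1, the rate-limiting enzyme of synthesis, ranged over 22.2 to 302 CPM at 3 months and 14.5 to 173 CPM at 24 months and did not pass (log2 fold change -0.43, SE 0.31, adjusted p = 0.246). Slco1a4, an uptake transporter, rose (log2 fold change 1.06, SE 0.21, adjusted p = 2.17e-05). Without the 4 livers apart 2 genes of the list rose (Slco1a4 and Fgfr4), and Abcg5 and Akr1d1 were at 0.32 (adjusted p = 0.0945) and 0.097 (adjusted p = 0.375). Drug-handling genes had 6 members higher and 8 lower of 35, against 25% and 24% of all genes. The abundant members Cyp1a2, Cyp2e1 and Cyp3a11 had log2 fold changes of -0.27 (adjusted p = 0.0823), -0.072 (adjusted p = 0.644) and -0.19 (adjusted p = 0.317). Gstm3, a glutathione transferase, rose most of them (log2 fold change 1.04, SE 0.23, adjusted p = 0.000133).

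Zonation genes did not shift as a block. Of 16 pericentral genes 6 rose and 1 fell (Tbx3), and without the 6 livers 5 rose and 0 fell. Without the 4 livers apart 3 rose (Oat, Lect2 and Slc13a3) and 3 fell (Cyp1a2, Rgn and Znrf3). Of 18 periportal genes 3 rose (Ctsc, Aldh1b1 and Pigr) and 5 fell (Cdh1, Etnppl, Cyp2f2, Otc and Hsd17b13). Hsd17b13 was at -0.20 (adjusted p = 0.0598) without the 6 livers. Cdh1, E-cadherin, which periportal hepatocytes and bile ducts carry, fell without overlap, from 19.9 to 50.8 CPM to 2.56 to 19 CPM (log2 fold change -2.28, SE 0.25, adjusted p = 6.67e-12). The urea cycle genes Cps1, Ass1 and Asl had log2 fold changes of -0.023 (adjusted p = 0.879), 0.057 (adjusted p = 0.762) and 0.039 (adjusted p = 0.837). Slc13a3, a dicarboxylate transporter of pericentral cells, rose from a median of 12.1 to 37.6 CPM (log2 fold change 1.87, SE 0.23, adjusted p = 4.03e-10), whereas glutamine synthetase, Glul, passed narrowly (log2 fold change 0.19, SE 0.082, adjusted p = 0.0414) and was at 0.12 (adjusted p = 0.253) without the 4 livers and at 0.16 (adjusted p = 0.132) without the 6 and had adjusted p = 0.0894 without replicate 5 at 24 months. Without replicate 8 at 24 months Tbx3 and Irs2 did not pass (adjusted p = 0.0745 and 0.0526), nor did they without the 6 (adjusted p = 0.206 and 0.165) or the 4 livers (adjusted p = 0.122 and 0.0899). Genes of glucose and glycogen handling fell in 8 of 17 with a median of -0.40, and Irs2 rose. Fewer, 5, fell without the 6 livers, among them Pklr, Gys2, Pygl and Ppp1r3b, and the median was then -0.24. In this list G6pc, Fbp1 and Pck1 did not pass, at -0.61 (adjusted p = 0.0682), -0.17 (adjusted p = 0.0667) and 0.089 (adjusted p = 0.834). Plasma proteins outside the acute phase list divided, 4 higher (Trf, Ambp, Serpina6 and Fgb) and 6 lower of 24, with transthyretin, Ttr, lower (log2 fold change -0.41, SE 0.12, adjusted p = 0.0036). Serpina6 was at 0.25 (adjusted p = 0.12) without the 4 livers and Fgb at 0.044 (adjusted p = 0.808) without the 6, where 3 fell (Apoa2, Apoe and Serpina1c).

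Nuclear genes of oxidative phosphorylation fell by small amounts. Of 56 members 47 fell and none rose, with a median of -0.22. Ndufb3, a complex I subunit, was lowest, from a median of 41.4 to 30.6 CPM (log2 fold change -0.39, SE 0.068, adjusted p = 2.95e-06). Without the 6 livers 28 fell. Mitochondrially encoded genes fell in 8 of 13, with mt-Cytb at -0.36 (adjusted p = 0.000268) and mt-Nd2 at -0.32 (adjusted p = 0.000603), and in 3 without the 6 livers (mt-Nd2, mt-Nd4 and mt-Cytb). The gene mt-Nd1 did not pass, at -0.086 (adjusted p = 0.348). Cytosolic ribosomal protein genes rose in 10 of 79 and fell in 1 (Rpl35a), and none passed without the 6 livers; without the 4 livers 6 rose and Rpl35a was at -0.12 (adjusted p = 0.097). Proteasome subunits fell in 30 of 38, with a median of -0.18; the 2 that rose were Psme1 and Psme2, the interferon-inducible regulators, at 0.32 (adjusted p = 5.27e-05) and 0.20 (adjusted p = 0.00705). Of the pair, Psme1 rose also without the 6 and without the 4 livers, at 0.28 (adjusted p = 0.00044) and 0.21 (adjusted p = 0.00593), while Psme2 was at 0.12 (adjusted p = 0.0996) and 0.13 (adjusted p = 0.115).

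Heat shock genes, the chaperones that the factor Hsf1 induces, fell in 14 of 16 with a median of -0.58. Hspa1b, an inducible Hsp70, was at 6.04 CPM in the lowest, 17.4 in the median and 69.1 in the highest at 3 months and 0.75 CPM in the lowest, 3.49 in the median and 9.63 in the highest at 24 months (log2 fold change -2.57, SE 0.33, adjusted p = 1.58e-09), and its near-identical neighbour Hspa1a fell too (log2 fold change -2.03, SE 0.34, adjusted p = 1.29e-06); Hspa1a also overlaps a gene model on the opposite strand, Gm20481. Hsph1, an Hsp110, had medians of 73.4 and 28.4 CPM (log2 fold change -1.51, SE 0.23, adjusted p = 9.91e-08). Cryab, a small heat shock protein, rose (log2 fold change 0.23, SE 0.082, adjusted p = 0.0136) and was at 0.17 (adjusted p = 0.103) without the 6 least alike livers. The 4 livers apart at 3 months included the 3 highest in Hspa1b, 64, 55 and 69.1 CPM in replicates 13, 15 and 16. Without these livers 9 members fell with a median of -0.27, and Hspa1b was at -1.83 (adjusted p = 2.56e-06).

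The element that Hsf1 binds is built from repeats of GAA and its reverse, so GAANNTTC was searched in the 300 bases around each start; the motif reads the same on both strands. It was present in 9 of 11 heat shock promoters (81.8%) and in 9.04% of all 27025 genes with a promoter entry. Promoters of 2 members that fell are shown for their matches, in capitals, in the 250 bases before the start. Hspa1b lies at chr17:34959239-34959488 on the minus strand, and Hspb1, a small heat shock protein that fell (log2 fold change -0.86, SE 0.22, adjusted p = 0.000758), at chr5:135887669-135887918 on the plus strand.
Hspa1b: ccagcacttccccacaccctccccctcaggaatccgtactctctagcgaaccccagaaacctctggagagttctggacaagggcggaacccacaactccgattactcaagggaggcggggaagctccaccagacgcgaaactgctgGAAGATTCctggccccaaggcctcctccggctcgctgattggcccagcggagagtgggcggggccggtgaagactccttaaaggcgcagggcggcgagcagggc
Hspb1: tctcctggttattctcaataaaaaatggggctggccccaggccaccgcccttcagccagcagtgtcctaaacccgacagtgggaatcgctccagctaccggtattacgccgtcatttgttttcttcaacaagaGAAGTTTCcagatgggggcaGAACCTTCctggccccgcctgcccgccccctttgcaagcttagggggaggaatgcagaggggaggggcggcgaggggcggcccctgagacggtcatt
Hspb1 was at -0.27 (adjusted p = 0.267) without the 4 livers apart. It carries 2 matches and Hspa1b 1 in this window.

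Chaperones and stress genes of the endoplasmic reticulum fell in 7 of 28 and 1 rose (Asns), against 24% of all genes lower and 25% higher. Hspa5, the main chaperone there, fell (log2 fold change -0.41, SE 0.18, adjusted p = 0.0474) but was at 0.038 (adjusted p = 0.872) without the 4 livers apart at 3 months and had adjusted p = 0.136 without replicate 16 at 3 months; without the 6 livers it was at -0.44 (adjusted p = 0.0676). Without those 4 livers 2 members fell (Herpud1 and Ern1). Asns, asparagine synthetase, rose (log2 fold change 1.48, SE 0.29, adjusted p = 1.56e-05). Nrf2 targets divided, with 5 higher and 10 lower of 23. The higher ones were Slc7a11, Hmox1, Gstm3, Nqo1 and G6pdx, of which G6pdx was at 0.27 (adjusted p = 0.298) without the 6 and 0.23 (adjusted p = 0.348) without the 4 livers. Nqo1, a quinone reductase, rose from a median of 7.48 to 12.3 CPM (log2 fold change 0.83, SE 0.12, adjusted p = 3.25e-08), and heme oxygenase, Hmox1, rose (log2 fold change 1.24, SE 0.21, adjusted p = 1.56e-06), while the factor Nfe2l2 fell slightly (log2 fold change -0.22, SE 0.072, adjusted p = 0.00981). Slc7a11, a cystine transporter, rose most (log2 fold change 2.22, SE 0.51, adjusted p = 0.000207), with medians of 0.039 and 0.232 CPM and 2.06 CPM in replicate 13. Slc7a11 was at 3.15 on the log2 scale without replicate 12 at 3 months.

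Collagens and stellate cell genes rose in 20 of 32, with a median of 0.45, and Col4a2 fell, a call lost with 1 liver left out (adjusted p = 0.162 without replicate 12 at 3 months). Without the 4 livers apart 13 rose, with a median of 0.29. The fibrillar collagens Col1a1, Col1a2 and Col3a1 did not pass, at 0.47 (adjusted p = 0.226), 0.31 (adjusted p = 0.207) and 0.22 (adjusted p = 0.43). Timp1, an inhibitor of matrix proteases, rose most (log2 fold change 1.82, SE 0.40, adjusted p = 9.63e-05). Timp1 was at 2.56 on the log2 scale without replicate 12 at 3 months. Dcn, the proteoglycan decorin, rose without overlap, from 139 to 189.9 CPM to 198 to 354 CPM (log2 fold change 0.67, SE 0.054, adjusted p = 2.96e-17). Sinusoidal endothelial genes showed 4 higher (Vwf, Cdh5, Fcgr2b and Pecam1) and 5 lower (Lyve1, Wnt2, Ehd3, Oit3 and Tek) of 19, shares close to the 25% and 24% of all genes. Without the 6 livers 1 was higher (Vwf) and 5 lower (Lyve1, Oit3, Tek, Gpr182 and Wnt2), and without the 4 livers 2 were higher (Fcgr2b and Vwf) and 7 lower. Vwf, von Willebrand factor, was highest (log2 fold change 0.61, SE 0.12, adjusted p = 1.93e-05) and Lyve1, a hyaluronan receptor, lowest (log2 fold change -0.62, SE 0.18, adjusted p = 0.0036). Of 9 bile duct genes tested (12 listed) 4 rose (Spp1, Muc1, Bicc1 and Sox9), and without the 6 livers 2 did (Muc1 and Bicc1). Krt7, Krt19 and Epcam did not pass (adjusted p = 0.369, 0.836 and 0.224).

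Markers of time and handling were checked. Of 18 clock genes 1 rose (Bhlhe41) and 2 fell (Clock and Hlf). Arntl and Npas2 had log2 fold changes of -0.072 (adjusted p = 0.817) and 0.031 (adjusted p = 0.949), and Clock fell (log2 fold change -0.47, SE 0.088, adjusted p = 8.59e-06). Bhlhe41, a clock repressor, rose (log2 fold change 1.41, SE 0.52, adjusted p = 0.0202) to 35.8 CPM in replicate 13 and was at 0.33 (adjusted p = 0.61) without the 6 livers. Without replicate 13 alone it was at 0.34 (adjusted p = 0.543). Glucocorticoid-responsive genes rose in 5 of 16 (Sult1e1, Mt1, Mt2, Lcn2 and Ddit4). The metallothioneins Mt1 and Mt2 were at medians of 4.58 and 2 CPM at 3 months and 22.2 and 12.2 CPM at 24 months (log2 fold changes 4.41 and 4.46, adjusted p = 3.56e-06 and 7e-05). Without the 6 least alike livers 4 members of the list passed higher and 1 lower. The receptor Nr3c1 and its target Fkbp5 did not pass, at 0.05 (adjusted p = 0.524) and 0.36 (adjusted p = 0.158), and the target Tsc22d3 fell (log2 fold change -0.64, SE 0.16, adjusted p = 0.000487). Immediate early genes rose in 5 of 14 (Ier3, Btg2, Junb, Myc and Klf6), in 3 without the 6 livers (Ier3, Btg2 and Klf6), and Dusp1 fell, a call lost with 1 liver left out (adjusted p = 0.0896 without replicate 2 at 3 months). Fos, Fosb and Jun did not pass, at -0.049 (adjusted p = 0.906), -0.72 (adjusted p = 0.136) and 0.067 (adjusted p = 0.801). Of the red cell genes, the hemoglobin genes Hba-a1, Hba-a2, Hbb-bs and Hbb-bt rose, whereas Alas2, the first enzyme of heme synthesis in red cells, fell (log2 fold change -0.75, SE 0.21, adjusted p = 0.00175). Hbb-bs and Hba-a1 rose by 0.77 (adjusted p = 0.000333) and 0.74 (adjusted p = 0.000566), but were at 0.41 (adjusted p = 0.0676) and 0.39 (adjusted p = 0.0784) without the 6 livers, where of the hemoglobin genes Hba-a2 alone rose and Alas2 was at -0.65 (adjusted p = 0.0168).

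Most genes of other organs were too low to test. Only 2 of 14 exocrine pancreas genes, 3 of 9 adipose genes and 2 of 8 gallbladder and gut genes were high enough to test. Cela2a, a pancreatic elastase, was called lower (log2 fold change -1.58, SE 0.38, adjusted p = 0.000379), yet its 24 month median of 0.692 CPM exceeded the 3 month median of 0.432 CPM, and it was at 0.50 (adjusted p = 0.14) without the 4 livers apart. Fabp4, of adipose tissue and macrophages, rose (log2 fold change 0.41, SE 0.14, adjusted p = 0.0119) but lost the call with 1 liver left out (adjusted p = 0.0754 without replicate 8 at 24 months) and without the 6, at 0.057 (adjusted p = 0.735). Car3, a carbonic anhydrase on the adipose list, was abundant, at medians of 2897 CPM at 3 months and 1699.8 CPM at 24 months. It did not pass (log2 fold change -0.72, SE 0.32, adjusted p = 0.0553) but did without the 4 livers apart, at -1.01 (adjusted p = 0.00749). Of the gut genes Fabp2, an intestinal fatty acid-binding protein, fell (log2 fold change -0.76, SE 0.18, adjusted p = 0.000352). Vil1, villin, rose (log2 fold change 0.99, SE 0.43, adjusted p = 0.0466), a call lost with 1 liver left out (adjusted p = 0.175 without replicate 10 at 24 months) and without the 6 or the 4 livers, at 0.85 (adjusted p = 0.132) and 1.02 (adjusted p = 0.0766).

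The remaining genes with the largest falls were Ces4a, a carboxylesterase, at 1.66 to 17.6 CPM and 0.121 to 1.54 CPM without overlap (log2 fold change -3.71, SE 0.35, adjusted p = 3.27e-14), Serpina9, a serpin (log2 fold change -2.96, SE 0.40, adjusted p = 7.84e-09), and Gm45792, an RNA antisense to another gene (log2 fold change -2.28, SE 0.43, adjusted p = 1.12e-05). A gene model on an unplaced scaffold and without a symbol, ENSMUSG00000079190, was above all young values in every old liver (log2 fold change 7.51, SE 0.94, adjusted p = 8.68e-10), with 8 reads over the young livers and 47.7 CPM in replicate 13. The highest young value of ENSMUSG00000079190 was 0.0687 CPM and the lowest old value 0.0756 CPM, with an old median of 0.67 CPM. ENSMUSG00000079190 was at 5.87 on the log2 scale without replicate 13 at 24 months. Among the most abundant genes that were called, Trf, transferrin, rose from a median of 14302 to 20212 CPM (log2 fold change 0.57, SE 0.084, adjusted p = 6.2e-08), and Pzp and Fgb rose by 0.23 (adjusted p = 0.0253) and 0.36 (adjusted p = 0.0452). Neither passed without replicate 5 at 24 months (adjusted p = 0.121 and 0.266) or without the 6 livers, at 0.12 (adjusted p = 0.191) and 0.044 (adjusted p = 0.808). Serpina3k fell from 11121 to 6423 CPM (log2 fold change -0.89, SE 0.13, adjusted p = 1.3e-07), and Apoe and Apob, of lipoproteins, fell by 0.26 and 0.24 on the log2 scale (adjusted p = 0.00358 and 0.0178), and Apob was at -0.18 (adjusted p = 0.102) without the 6 and -0.19 (adjusted p = 0.084) without the 4 livers. Of genes chosen after their values were seen, Enpp1, a nucleotide pyrophosphatase, rose without overlap from 20.1 to 31.2 CPM to 32.3 to 50.1 CPM (log2 fold change 0.76, SE 0.06, adjusted p = 7.32e-18), and Ephx1, an epoxide hydrolase, fell without overlap from 338 to 650.1 CPM to 162 to 327 CPM (log2 fold change -0.83, SE 0.11, adjusted p = 1.3e-09).

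Livers of the other ages stood in the same fit. Against 15 months, 5609 genes (36%) differed at 24 months, 3365 higher (21.6%) and 2244 lower (14.4%). Between 15 and 3 months 1140 genes (7.32%) differed, 477 (3.06%) higher and 663 (4.26%) lower. These comparisons share livers with each other and with the one above, so their values are given side by side. Of the 26 male-biased genes 22 fell from 15 to 24 months, while 2 fell (Ugt2b38 and Gstp1) and 3 rose (Moxd1, Susd4 and Nat8) from 3 to 15 months. All 20 major urinary protein genes fell from 15 to 24 months and 0 from 3 to 15. The transporter Slco1a1 had medians of 499, 457 and 0.56 CPM at 9, 15 and 28 months, and Slc22a26 of 1.34, 3.51 and 247 CPM. From 24 to 28 months Slco1a1 fell further (log2 fold change -3.98, adjusted p = 1.05e-05).

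Ighm had medians of 77.4 and 133 CPM at 9 and 15 months. Cdkn2a reached 0.708 CPM at 9 months and 0.942 CPM at 15 months; its rise from 3 to 15 months was 3.04 (adjusted p = 1.33e-08) and that from 15 to 24 months 0.87 (adjusted p = 0.0227). T cell genes rose in 1 of 31 to 15 months (Zap70) and in 27 after it, MHC class II genes in 0 and 13 of 13, and acute phase genes in 0 and 20 of 24. PPAR-alpha targets fell in 0 of 26 to 15 months and in 20 from 15 to 24 months. Cholesterol synthesis genes rose in 4 of 24 (Pmvk, Fdft1, Sqle and Hsd17b7) and then in 5, among them Srebf2 and Sqle. Type I interferon-stimulated genes rose in 1 of 29 (Ifi27) and fell in 2 (Usp18 and Ddx58) to 15 months, with a median of -0.27, and rose in 21 from 15 to 24 months, against 21.6% of all genes. Whether a list's change differed between the 2 intervals was not tested.

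**Figure D5:**
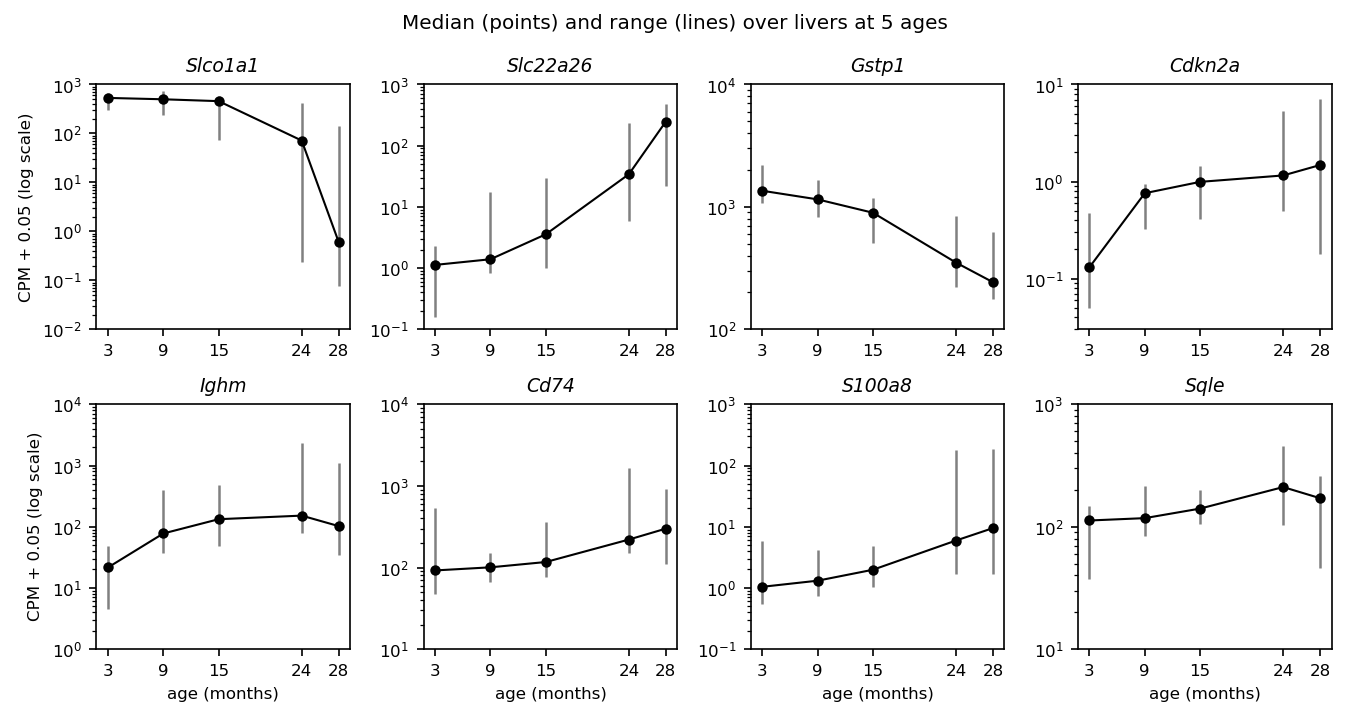
Median (points) and range over livers (grey lines) of CPM plus 0.05, log scale, for 8 genes at 3, 9, 15, 24 and 28 months (16, 16, 16, 17 and 18 livers). Slco1a1 stays near its 3 month level until 15 months and falls at 24 and 28 months, whereas Cdkn2a and Ighm are already raised at 9 months.

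The age difference was also tested for a difference between the 3 library preps. In edgeR's quasi-likelihood test 0 genes (0%) passed an adjusted p of 0.05 and 982 an unadjusted p under 0.05; with RLE size factors these were 0 and 954, and over the 33 livers alone 0 and 547. Prep 1, 2 and 3 on their own called 898, 2455 and 5284 genes. The brains of the same mice gave a second comparison over 32 brain libraries at these ages. The change from 3 to 24 months differed between liver and brain for 4162 of 14035 genes (29.7%). That fit held no term for the mouse, and voom with the mouse as a random block called 4017. Of 12 genes followed in both tissues, the log2 fold change was larger in liver for Cdkn2a, Cd74, Ccl5 and Gbp2 and larger in brain for H2-K1 and C4b, while B2m, Lcn2, Fkbp5, Cdkn1a, Ifit3 and Per1 did not pass the test of the difference. In brain alone Cdkn2a rose, whereas Cd74, Ccl5 and Gbp2 did not pass (adjusted p = 0.41, 0.732 and 0.453). Brain levels of Cdkn2a and Ccl5 were low, with means of 0.0614 and 0.317 CPM and of 0.217 and 0.308 CPM at 3 and 24 months.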

How the data were processed

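The authors deposited a table of counts per gene for the 83 liver libraries and one for brain, and the labels give age, replicate and library prep. Per the submitters' processing notes, cutadapt 2.8, HISAT2 2.1.0, SAMtools 1.9 and featureCounts (Subread 2.0.1) were used with GRCm38.p6 (mm10); the annotation version, strand setting and treatment of multi-mapping reads are not given in the sources used here. Coordinates come from GENCODE M21 (GRCm38), promoters from RefSeq, and 55144 of 55471 identifiers matched a symbol. Near-identical genes and genes that overlap another, such as Gm13775, Pzp (opposite strand), Serpina9, Trf and Serpina3k (same strand), are therefore uncertain.

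Genes kept by filterByExpr were fitted with edgeR 4.0.16 (R 4.3.3) on TMM-scaled libraries, with age and prep as terms over all 83 livers, so that all ages share 1 estimate of the spread. Benjamini-Hochberg adjusted p under 0.05 in the quasi-likelihood test was called. Fold changes use the default prior count of that fit. Log2 levels for correlations between livers and for principal components use a prior count of 2. Each library is a mouse by its label, and p-values measure the spread between these mice. No library pair agreed within sampling noise: the lowest ratio of their difference to it was 17.2. The other fits were limma 3.58.1 (voom with quality weights) and DESeq2 1.42.0, other scalings, filters, covariates and subsets of livers.

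Members and gene lists were chosen with earlier results of these data known. Named genes were the 10 called genes that rose most and the 10 that fell most, given that they averaged 1 CPM or more over the 33 livers and kept 1 direction in the preps fitted alone, the 5 most abundant called genes in each direction, and of each list the first 3 tested members and the highest and lowest called ones. Other genes in the text, among them Cyp2d9, Mup20, Mup3, Slc22a27, Ntrk2, Cux2, Igkc, Cd8a, Cd4, Cxcl13, Lcn2, Dcn, Enpp1 and Ephx1, were chosen after their values were seen. Some genes are not reported here.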

Additional observations from a re-analysis of the deposited data

Results flagged for a closer look

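The change from 3 to 24 months was compared between liver and brain of the same mice for 12 genes in 1 fit of both tissues, by the difference of the log2 fold changes (liver less brain) in edgeR's quasi-likelihood test over all genes. The fit held no term for the mouse. These 6 genes stood out because the change differed between the tissues. Ccl5 rose by 3.19 in liver and was at 0.40 in brain, where it did not pass (adjusted p = 0.732), a difference of 2.798 (adjusted p = 0.00012). Cdkn2a rose by 3.94 in liver and 2.33 in brain (difference 1.61, adjusted p = 0.0278). Mean brain levels at 3 and 24 months were low, 0.217 and 0.308 CPM for Ccl5 and 0.0614 and 0.317 CPM for Cdkn2a. Cd74 was at 1.87 and 0.47 (difference 1.40, adjusted p = 0.00287), and Gbp2 at 1.45 and 0.38 (difference 1.07, adjusted p = 0.0107). In brain alone Cd74 and Gbp2 did not pass (adjusted p = 0.41 and 0.453). The other two went the opposite way. C4b, a complement component that glia also make, was at 0.48 in liver and 1.65 in brain (difference -1.16, adjusted p = 1.83e-10), and H2-K1 at 0.37 and 0.72 (difference -0.35, adjusted p = 0.0273).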

How the results depend on the processing

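Of 15579 genes, 7636 were called, 3894 higher and 3742 lower. With RLE size factors 7627 were called, without a filter 8593 of 33676, over the 33 livers alone 6890, without the prep term 7516, with a clock gene score 7779, with robust dispersions 7639, with voom and quality weights 7253 and with DESeq2 7689, and without the 6 least alike or the 4 livers apart 6419 and 6990. Single preps had fewer livers: prep 1 called 898 (581 higher, 317 lower), prep 2 called 2455 (1572 and 883) and prep 3 called 5284. Leaving out 1 liver gave 7116 (24 months replicate 10) to 7918 (3 months replicate 12) called, 3502 to 4172 higher and 3419 to 3911 lower.

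Ages share replicate numbers, but a number names a mouse only within its age. With a replicate block 7571 genes were called. Of 16 numbers 2 had a pair correlation over 0.1 (lowest -0.584, median 0.00678, highest 0.188), and 0 livers went best with their own number. Against 15 months 5609 genes were called, 5688 from those 2 ages alone, 5578 with a replicate block and 5686 with RLE size factors. The liver and brain difference of 4162 genes became 4027, 4145 and 4017 from those ages alone, with RLE size factors and with the mouse as a random block.

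Of 208 named genes 161 were called. Calls were lost by 19 with 1 liver left out, 28 without the 6 and 27 without the 4 livers, 21 with voom and quality weights, 13 over the 33 livers alone, 13 without a filter, 7 with the replicate block (2 gained), 6 with the clock score, 3 each with DESeq2 and without the prep term, 116, 89 and 34 in prep 1, 2 and 3 alone, and 0 with RLE size factors or robust dispersions. Signs turned for Hspa5 and Srebf1 with voom and quality weights (0.036 and 0.34) and without the 4 livers (0.038 and 0.38), for Cela2a likewise (0.13 and 0.50), and in prep 1 alone for Gbp4 (-0.000899), Cd163 (0.0999), Bhlhe41 (-0.63) and mt-Nd3 (0.031). List medians turned by more than a small amount for pericentral genes in prep 3 (0.10), periportal (0.078) and secreted proteins (0.11) in prep 1, fatty acid synthesis without the 6 livers (0.087), ribosomal genes in prep 3 (-0.13), the pair of pancreas genes without the 4 livers (from -0.913 to 0.0965), interferon (-0.039), glucocorticoid (-0.042) and gallbladder and gut genes (-0.011) in prep 2, and immediate early genes without the 6 livers (-0.026). ER stress turned in prep 1 (0.088), with voom and quality weights (0.016) and without the 4 livers (0.027). The quality weights of the 4 livers lay between 0.281 and 0.419. Medians close to 0 changed sign under other settings by less, those of growth hormone signalling, drug-handling, endothelial and clock genes (by values under 0.1 in size) and, for example, of pericentral (0.052) and periportal genes (0.016) without the 6 livers, secreted proteins without the 4 (0.013) and fatty acid synthesis in prep 3 (0.059). In these cases the cause was not tested. Depth limits genes with few reads at 3 months, such as Cyp2b13 and Camp.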
